A study of Mus musculus with 10 samples.

Results

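The genes of cholesterol synthesis and of its regulation by SREBP2 were followed in the livers of mice that lack Arg2 in hepatocytes. The set comprised 29 genes, chosen by symbol from a table of 55487 genes. Of these, 19 encode enzymes of the pathway, 6 encode the SREBP machinery that regulates it, and 4 encode proteins that esterify, carry or dispose of sterols or their receptors. All 29 were present in the table and all 29 passed the filter on low counts. The study asked how loss of hepatocyte Arg2, the gene of the mitochondrial arginase, alters the liver transcriptome in old age. LKO mice carried the hepatocyte deletion of Arg2 and Flox mice were their littermates with floxed Arg2 alleles. Both groups were of strain C57B/6J as the labels spell it, were 22 months old, shared cages and ate normal chow. The Cre driver behind the deletion is not given in the labels. Each group had 5 RNA-seq libraries of liver, made with oligo-dT.

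Cells make cholesterol from acetyl-CoA through mevalonate, squalene and lanosterol. When sterols in the endoplasmic reticulum run low, the escort protein SCAP carries the membrane-bound precursor SREBP2 to the Golgi. The proteases encoded by Mbtps1 and Mbtps2 then release its transcription factor domain, which raises transcription of nearly every enzyme of the pathway. When sterols are plentiful, INSIG1 and INSIG2 hold SCAP back. The liver is a main site of this synthesis in the mouse, and the pathway follows feeding and time of day.

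Libraries held 43331354 to 54951415 gene counts, and 15894 genes were tested. Values per library are CPM, read counts scaled to library size after TMM normalization. Arg2 had 0, 0, 0, 4 and 6 counts in LKO and 0, 4, 0, 5 and 0 counts in Flox, which is too few to check the deletion. The LKO columns of the table carry numbers that do not occur in the LKO titles, so an LKO library is named here by its column number. Albumin averaged 108200 ± 8701 CPM in LKO and 70400 ± 23840 CPM in Flox (SD, n = 5 each). Flox 3 stood at the edge of several marker lists. Summed over 16 acute phase genes, LKO libraries held 22630 to 44300 CPM and Flox libraries 21560 to 143400 CPM, and Flox 3 was the highest. All 16 had lower means in LKO, 12 of them at an unadjusted p under 0.05 by edgeR, which 4.33% of all genes reached in that direction, and 0 passed the adjustment. Summed over 7 hepatocyte markers, LKO libraries held 127400 to 155800 CPM and Flox libraries 52470 to 121500 CPM, and Flox 3 was the lowest. Albumin makes up most of these sums. Of the 7 markers, 5 had higher and 2 lower means in LKO, with a median log2 fold change of 0.19, and their mean log2 CPM overlapped between the groups, at 12.06 to 12.44 in LKO and 11.40 to 12.17 in Flox. T cell markers, all 6 of them tested, summed to 1.53 to 3.92 CPM in LKO and 2.14 to 6.09 CPM in Flox, with Flox 3 again the highest. Erythroid markers summed to 449.6 to 879 CPM in LKO and 224 to 397 CPM in Flox. No marker of these lists was at 0 in every library. In whole liver, fewer cells of a type and less RNA per cell cannot be told apart. The part of these differences in the results below was not tested.

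None of the 29 genes passed the test between LKO and Flox. The enzymes had log2 fold changes from -0.32 to 0.47, with a median of -0.06 against -0.01 for all genes tested. Values were lower in LKO for 11 of the 19 enzymes and higher for 8, and for 51.6% of all genes they were lower. Of the 6 regulators 3 had higher and 3 lower means in LKO (median -0.05), and all 4 sterol handling genes had higher means (median 0.09). Srebf2 itself had a lower mean in LKO and Insig1 a higher one, neither past the threshold. A single library, Flox 3, had the lowest value of all 10 libraries for 18 of the 19 enzymes.

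By edgeR's quasi-likelihood test, 0 of the 29 members had an adjusted p under 0.05, against 0% of all genes, and the smallest adjusted p among members was 0.652, that of Srebf2. DESeq2 gave an adjusted p to 26 members, without Lbr, Mbtps2 and Mylip, and called 0 of the 26, where it called 0.134% of the 8184 genes it adjusted. Limma-voom called 0 of the 29, again against 0%. At an unadjusted p under 0.05 edgeR had 1 member, Srebf2, against 7.51% of all genes. Srebf2 was lower in LKO, a direction in which 4.33% of all genes passed, and 0 members were higher, against 3.17%. LKO and Flox libraries overlapped for every member, and for 0.906% of all genes they did not. P-values measure the spread between these libraries, since no label states that each came from its own animal.

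The promoter windows of Hmgcs1, Cyp51, Mvk, Srebf2 and Insig1 are shown because the comparisons below turn on these genes and because SREBPs act at such windows. Each runs from 250 bases before to 50 bases after the RefSeq start on GRCm38.p6, written 5′ to 3′ along the gene. Capitals mark TCACNCCA, the core of the sterol regulatory element bound by SREBPs (TCACNCCAC where the longer form is present), and CCAAT, the motif of NF-Y, a factor that acts beside SREBPs, each on either strand.
Hmgcs1, chr13:119690101-119690400, + strand: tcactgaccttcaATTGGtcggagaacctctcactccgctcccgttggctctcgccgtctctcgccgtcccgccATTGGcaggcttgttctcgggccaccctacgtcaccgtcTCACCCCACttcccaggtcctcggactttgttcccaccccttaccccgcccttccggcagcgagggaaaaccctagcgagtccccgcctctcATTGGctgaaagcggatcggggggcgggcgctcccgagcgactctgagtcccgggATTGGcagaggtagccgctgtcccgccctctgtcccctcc
Cyp51, chr5:4104648-4104947, - strand: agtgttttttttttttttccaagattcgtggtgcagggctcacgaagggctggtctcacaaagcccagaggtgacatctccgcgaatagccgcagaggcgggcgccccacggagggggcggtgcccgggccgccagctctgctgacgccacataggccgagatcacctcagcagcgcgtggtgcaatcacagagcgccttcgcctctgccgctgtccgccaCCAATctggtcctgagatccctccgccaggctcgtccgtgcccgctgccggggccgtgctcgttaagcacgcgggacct
Mvk, chr5:114444019-114444318, + strand: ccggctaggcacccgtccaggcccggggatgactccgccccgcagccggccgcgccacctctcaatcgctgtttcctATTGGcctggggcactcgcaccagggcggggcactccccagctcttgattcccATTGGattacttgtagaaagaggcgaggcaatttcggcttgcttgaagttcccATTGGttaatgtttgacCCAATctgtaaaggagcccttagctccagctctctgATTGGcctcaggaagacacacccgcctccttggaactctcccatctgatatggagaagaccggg
Srebf2, chr15:82147019-82147318, + strand: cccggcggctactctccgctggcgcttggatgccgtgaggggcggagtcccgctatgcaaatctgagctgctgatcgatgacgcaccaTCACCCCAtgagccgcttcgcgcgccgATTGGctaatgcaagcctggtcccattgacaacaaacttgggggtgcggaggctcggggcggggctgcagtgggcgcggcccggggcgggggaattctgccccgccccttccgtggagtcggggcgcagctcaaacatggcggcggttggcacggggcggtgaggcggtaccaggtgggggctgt
Insig1, chr5:28071162-28071461, + strand: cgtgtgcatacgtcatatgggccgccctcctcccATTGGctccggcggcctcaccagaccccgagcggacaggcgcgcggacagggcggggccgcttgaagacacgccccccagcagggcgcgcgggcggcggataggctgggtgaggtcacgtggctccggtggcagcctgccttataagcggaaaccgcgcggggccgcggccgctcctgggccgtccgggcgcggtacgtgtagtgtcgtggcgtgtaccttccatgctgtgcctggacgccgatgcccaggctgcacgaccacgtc
The window of Hmgcs1 holds TCACNCCAC 137 bases before the start, and that of Srebf2 holds TCACNCCA 162 bases before it. CCAAT stands 4 times in the window of Hmgcs1, 5 times in that of Mvk and 1 time each in those of Cyp51, Srebf2 and Insig1. RefSeq windows were found for 24 of the 29 members, without Fdps, Fdft1, Sqle, Soat2 and Stard4. CCAAT was present for 15 of the 16 enzymes with a window, where 41.1% of all genes with a window have it. TCACNCCA was present for 2 of the 16, Hmgcs1 and Msmo1 (4.97% of all genes), and TCACNCCAC for 1 (1.44%). The longer sterol element contains the shorter, which was chosen after the windows had been read, and CCAAT can share its first letters with the end of either. In the windows shown, CCAAT and the sterol element do not overlap. A match is a description of letters, not a binding site.

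The first steps build mevalonate and turn it into isoprenoid units. Hmgcs1 encodes the cytosolic synthase that makes HMG-CoA, and it is a textbook target of SREBP2. It lies on chromosome 13 from 119690379 to 119708260 (GRCm38, GENCODE M21). It was at 498, 456, 284, 438 and 348 CPM in LKO libraries 1 to 5, and at 513, 605, 165, 503 and 551 CPM in Flox libraries 1 to 5. Of the Flox libraries, 4 lay above every LKO library, and Flox 3 lay below all of them. The log2 fold change was -0.21 ± 0.30 (SE; 95% interval -0.86 to 0.44; edgeR adjusted p = 0.847). Mvk, mevalonate kinase, was at 40.7, 35.0, 33.0, 33.6 and 34.9 CPM in LKO and at 37.4, 55.4, 28.02, 59.6 and 41.3 CPM in Flox. LKO 1 was above the other LKO libraries, which were close together, and Flox 2 and Flox 4 were well above all LKO libraries. The log2 fold change was -0.32 ± 0.18 (SE; 95% interval -0.71 to 0.07; edgeR adjusted p = 0.657), the most negative of the 29. Mvd, the decarboxylase that yields isopentenyl diphosphate, averaged 45.8 ± 7.4 CPM in LKO and 50.8 ± 19.5 CPM in Flox. Its log2 fold change was -0.15 ± 0.27 (SE; edgeR adjusted p = 0.885).

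Pmvk, the kinase between Mvk and Mvd, averaged 83.4 ± 13.4 CPM in LKO and 87.5 ± 37.7 CPM in Flox. Idi1, the isomerase of isopentenyl diphosphate, was at 56.0, 55.1, 39.5, 72.9 and 43.0 CPM in LKO and at 56.3, 65.1, 22.1, 57.9 and 56.8 CPM in Flox. Apart from Flox 3 the Flox libraries were close together. LKO 4 lay above them, LKO 1 and LKO 2 slightly below them, and LKO 3 and LKO 5 further below. A copy of Idi1, Gm13502, matches it over 684 bases and held 1748 counts, against 25947 for Idi1. Acat2, the cytosolic thiolase that joins acetyl-CoA units, averaged 101 ± 14.7 CPM in LKO and 95.2 ± 33.0 CPM in Flox. The transcripts of Acat2 and its neighbour in sequence Acat3 match over 1477 bases, so reads may be split between them. Summed, they averaged 195 ± 18.7 CPM in LKO and 182 ± 36.9 CPM in Flox. Tcp1, which matches Acat2 over 445 bases and held 45513 counts, is not in that sum. Fdps, the synthase of farnesyl diphosphate, averaged 12.02 ± 3.13 CPM in LKO and 13.0 ± 6.4 CPM in Flox. Its counts are uncertain, since Gm3571, whose sequence matches it over 1062 bases, held 12915 counts against 6340 for Fdps itself. Further copies, Gm5873, Gm8163 and Gm7979, held 4010, 1015 and 361 counts and are not in the sum below. Gm43738 overlaps 1124 exon bases of Fdps on the same strand and held 0 counts. The sum is therefore partial. The sum of Fdps and Gm3571 averaged 36.8 ± 8.8 CPM in LKO and 39.5 ± 15.5 CPM in Flox, with a log2 fold change of -0.10 (edgeR adjusted p = 0.927).

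Squalene is made from farnesyl diphosphate and closed into the first sterol by the products of Fdft1, Sqle and Lss. Sqle, the squalene epoxidase and a rate-controlling step, was at 117, 123, 115, 147 and 119.7 CPM in LKO and at 97.3, 142, 81.4, 171 and 161 CPM in Flox. The Flox libraries lay on both sides of the LKO range, and the log2 fold change was -0.07 ± 0.19 (SE; 95% interval -0.49 to 0.34; edgeR adjusted p = 0.923). Lss, lanosterol synthase, was at 114, 86.8, 85.9, 91.8 and 110.2 CPM in LKO and at 93.2, 73.6, 32.2, 114 and 129 CPM in Flox. Flox 3 was again far below the other libraries, and the log2 fold change was 0.14 ± 0.30 (SE; edgeR adjusted p = 0.899). Fdft1, squalene synthase, averaged 203 ± 31.9 CPM in LKO and 211 ± 71.3 CPM in Flox (log2 fold change -0.06 ± 0.23 SE; edgeR adjusted p = 0.95). Its exons overlap those of Ctsb on the other strand over 774 bases, and without stated strandedness reads there cannot be told apart. A copy of Fdft1, Gm6781, matches it over 1249 bases and held 3298 counts, against 103686 for Fdft1.

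The last enzymes convert lanosterol into cholesterol. Cyp51, the lanosterol demethylase, was at 257, 253, 175, 270.3 and 214 CPM in LKO and at 275, 288, 158, 285 and 283 CPM in Flox. As for Hmgcs1, 4 Flox libraries lay above every LKO library and Flox 3 below all. The log2 fold change was -0.14 ± 0.18 (SE; 95% interval -0.53 to 0.25; edgeR adjusted p = 0.827). Msmo1, the C4-methylsterol oxidase, averaged 165 ± 19.2 CPM in LKO and 183 ± 47.7 CPM in Flox (log2 fold change -0.15 ± 0.18 SE; edgeR adjusted p = 0.814). Sc5d, the sterol C5-desaturase, had the highest level per exon length of the 29, at 156 ± 18.7 CPM per kb in LKO and 112 ± 64.2 CPM per kb in Flox. In CPM it was at 854, 681, 676, 726 and 859 in LKO and at 693, 286, 169.6, 656 and 929.5 in Flox. Here Flox 2 as well as Flox 3 lay far below the rest, and the log2 fold change of 0.47 ± 0.38 (SE; 95% interval -0.37 to 1.32) was the most positive of the 29 (edgeR adjusted p = 0.736). Dhcr7, the reductase of 7-dehydrocholesterol, was at 158, 143, 130.3, 144 and 169 CPM in LKO and at 163, 105, 65.9, 185 and 178 CPM in Flox, with Flox 2 and Flox 3 again the lowest.

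Of the remaining 5 enzymes of this stretch, Ebp, the sterol isomerase, averaged 253 ± 33.8 CPM in LKO and 247 ± 34.0 CPM in Flox, and it was the enzyme for which LKO 4 rather than Flox 3 was the lowest library. Tm7sf2 and Lbr encode alternative sterol C14-reductases, Lbr being also the lamin B receptor of the nuclear envelope. Tm7sf2 averaged 27.9 ± 6.4 CPM per kb in LKO and 29.4 ± 7.6 CPM per kb in Flox. Its exons overlap those of Vps51 on the same strand over 532 bases, where reads cannot be told apart. Vps51 held 7217 counts against 62946 for Tm7sf2. Lbr averaged 1.33 ± 0.16 CPM per kb in LKO and 1.27 ± 0.24 CPM per kb in Flox. Lbr was thus the lowest enzyme per exon length, and its log2 fold change was 0.07 ± 0.15 (SE; edgeR adjusted p = 0.913). Nsdhl and Hsd17b7, which act together in removing the C4 methyl groups, averaged 89.3 ± 13.1 and 66.0 ± 12.8 CPM in LKO, and 84.9 ± 31.0 and 67.6 ± 17.8 CPM in Flox.

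**Figure D1:**
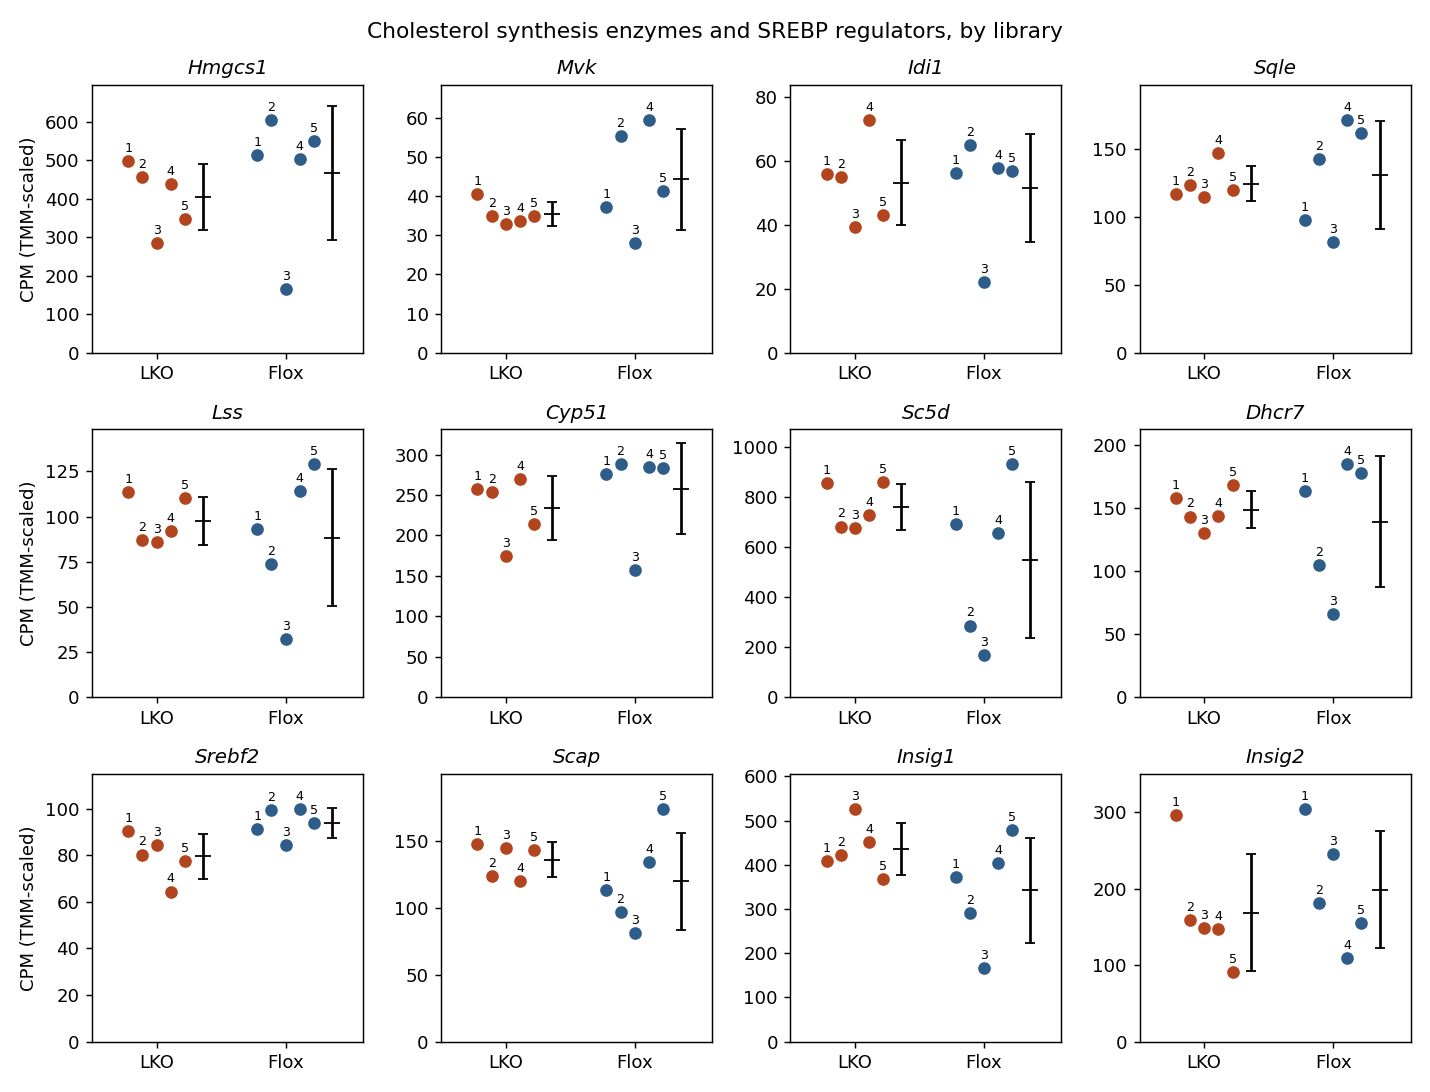
CPM (vertical axis, from 0) of 8 enzymes and 4 SREBP regulators in each LKO and Flox library; numbers beside the points are the library numbers, and the black bars give the group mean ± SD (n = 5). Flox 3 is the lowest point for every enzyme shown, at 165 CPM for Hmgcs1 and 169.6 CPM for Sc5d.

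The enzymes shared their low library. Flox 3 was the lowest of the Flox libraries for all 19 enzymes, and LKO 3 the lowest of the LKO libraries for 16. Flox 5 had the highest value of all 10 libraries for 9 enzymes. The median enzyme in Flox 3 was at -1.10 log2 units from the median of the other libraries, and the median of all genes was at 0.00050. Sc5d was at -2.03, Pmvk at -1.63, Hmgcs1 at -1.60 and Ebp at -0.36. The SD among Flox libraries exceeded that among LKO libraries for 18 of the 19 enzymes on the log2 scale, with median SDs of 0.22 in LKO and 0.58 in Flox. For all genes the Flox SD was the larger in 59.4%, and the median SDs were 0.25 in LKO and 0.29 in Flox. The low Flox 3 enters the Flox SD of every enzyme. Without it the Flox SD in CPM was below that of LKO for some, such as Hmgcs1 (46.4 against 86.7) and Cyp51 (5.3 against 39.1). It stayed above that of LKO for most, such as Sc5d (265.9 against 90.9) and Mvk (10.7 against 3.0). Among the regulators, Flox 3 was at -0.10 for Srebf2, 0.30 for Mbtps1 and -0.05 for Mbtps2, at -1.29 for Insig1 and -0.73 for Scap, and at 0.67 for Insig2, the highest of the 29. Acute phase, hepatocyte and T cell marker sums were also extreme in Flox 3, as given above. Summed over 10 clock phase genes, Flox 3 was the lowest at 116 CPM and Flox 2 was at 140.6 CPM. LKO libraries held 206.1 to 500.2 CPM, and the highest Flox library 462.4 CPM. The list holds genes that ran opposite ways, so this sum does not measure phase. Dbp and Arntl were at 0.798 and 24.65 CPM in Flox 1, and at 91.0 and 3.02 CPM in Flox 5. Flox 3 did not stand alone, since the mean log2 CPM of the list was 2.74, 2.67 and 2.63 in Flox 1, 2 and 3. The mean log2 CPM of the enzymes was 6.70 in Flox 1 and 5.59 in Flox 3. By narrow margins, Flox 3 also had the lowest stellate cell sum and the highest cholangiocyte and neutrophil sums. The part of these differences in the low enzyme values was not tested.

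**Figure D2:**
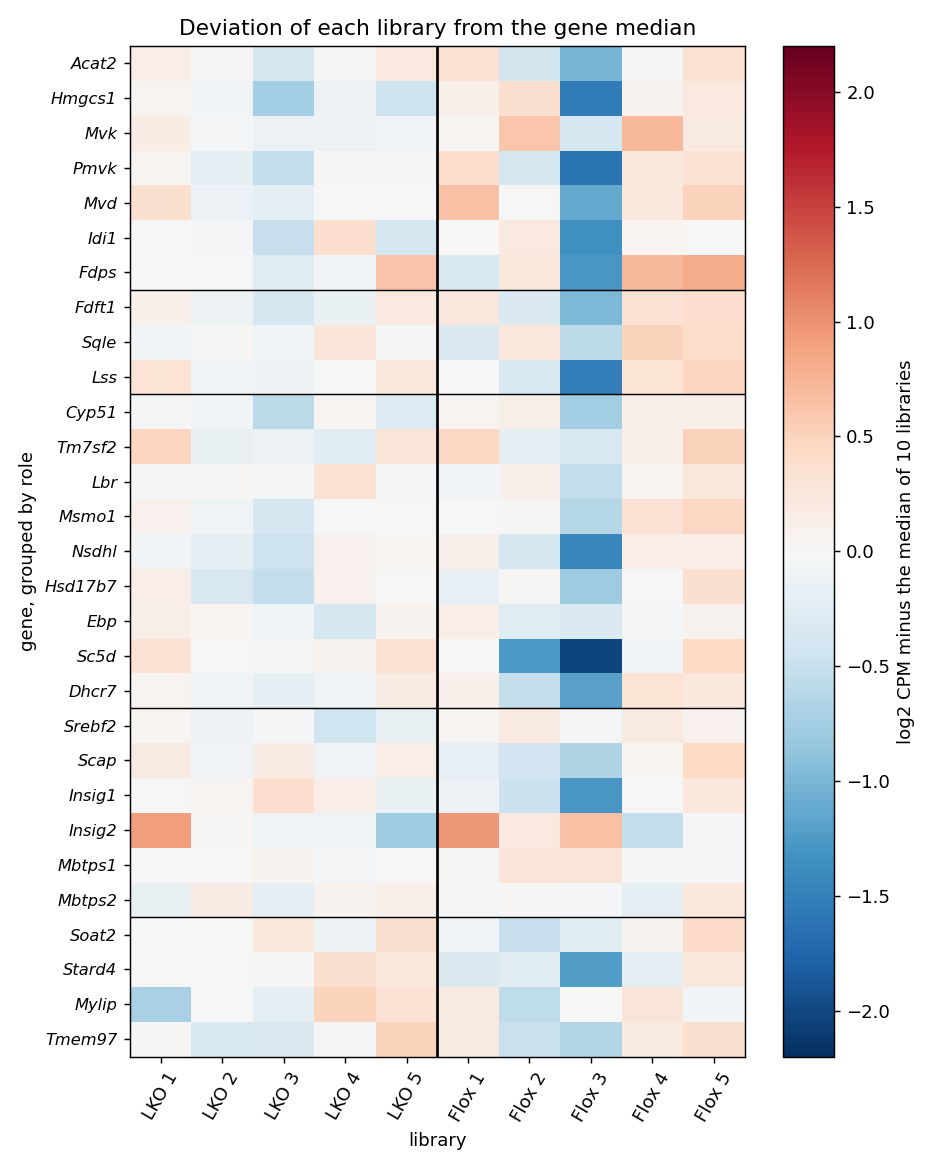
Log2 CPM of each of the 29 genes (rows, grouped by role) in each library (columns, LKO left of Flox), as the difference from the gene's median over the 10 libraries. The column of Flox 3 is blue for nearly all enzymes, down to -2.02 for Sc5d, and pale for Srebf2 and Mbtps2.

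Hmgcs1 was set against 8 single genes across the 10 libraries, with permutation tests of 100000 resamples and adjustment over the 8. Its log2 CPM went with that of Idi1 (Pearson's r = 0.931, permutation p = 0.00136, adjusted 0.0109; Spearman's rho = 0.709, permutation p = 0.0263, adjusted 0.105). Without Flox 3 and LKO 3, the 2 libraries farthest from the median of Idi1, r was 0.562 (permutation p = 0.143), so the relation rests in part on those libraries, whose removal also narrows the range of Idi1. Without Flox 3 alone r with Idi1 was 0.775, and without Flox 2 and Flox 3 it was 0.742 (permutation p = 0.0398, adjusted 0.319). With Srebf2, r was 0.324 (permutation p = 0.345, adjusted 0.460) and rho was 0.733 (permutation p = 0.0196, adjusted 0.105). Without the 2 farthest libraries, Flox 4 and LKO 4, r with Srebf2 was 0.563 (permutation p = 0.147). Sqle (r = 0.698, permutation p = 0.0239, adjusted 0.0955; rho = 0.515, permutation p = 0.132, adjusted 0.352) and Dhcr7 (r = 0.700, permutation p = 0.0478, adjusted 0.128; rho = 0.382, permutation p = 0.279, adjusted 0.557) did not pass the adjustment. Without the 2 farthest libraries r was 0.341 for Sqle (permutation p = 0.408) and 0.636 for Dhcr7 (permutation p = 0.0928). Without Flox 3 alone r was 0.368 for Sqle and 0.0118 for Dhcr7, so the value for Dhcr7 depends on which libraries are kept. Insig1 had r = 0.563 and rho = -0.02 (permutation p = 0.11 and 0.973, adjusted 0.220 and 0.973), and r = -0.34 without Flox 2 and Flox 3 (permutation p = 0.416). Insig2 had r = -0.04 and rho = 0.261 (permutation p = 0.922 and 0.469, adjusted 0.925 and 0.658), and r = -0.38 without Flox 1 and LKO 1 (permutation p = 0.340).

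By rank, the gene most like Hmgcs1 among the members was Cyp51, with rho = 0.927 over 10 libraries, followed by Mvk (0.891) and Msmo1 (0.782). Sc5d (0.164), Acat2 (0.370) and Dhcr7 (0.382) were the least like it by rho among the enzymes. The order depends on the measure. By Pearson's r Cyp51 (0.960) was again first, followed by Idi1 (0.931) and Mvd (0.866), with Mvk at 0.727. The lowest enzymes by r were Ebp (0.393), Tm7sf2 (0.489) and Sc5d (0.539). Without Flox 3, r was 0.953 for Cyp51, 0.775 for Idi1, 0.585 for Mvd and 0.651 for Mvk. It was then 0.0262 for Ebp, 0.235 for Tm7sf2 and -0.353 for Sc5d, so the values of r rest in part on that library. These values share libraries and scaling, and are descriptions. Dbp, a clock output gene that marks the time of day, had r = 0.0408 and rho = -0.20 with Hmgcs1 (permutation p = 0.925 and 0.586, adjusted 0.925 and 0.670), and r = 0.489 without Flox 1 and Flox 2 (permutation p = 0.199). Apcs, an acute phase protein, had r = -0.38 and rho = -0.25 (permutation p = 0.279 and 0.494, adjusted 0.447 and 0.658), and r = 0.0301 without Flox 2 and Flox 3 (permutation p = 0.938).

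Srebf2, which encodes SREBP2, lies on chromosome 15 from 82147181 to 82205379 (GRCm38, GENCODE M21). It was at 90.4, 80.3, 84.5, 64.4 and 77.6 CPM in LKO and at 91.3, 99.6, 84.4, 99.9 and 93.8 CPM in Flox. All LKO libraries lay below the Flox libraries except that Flox 3 was beneath LKO 1 and slightly below LKO 3. The means were 79.5 ± 9.7 CPM in LKO and 93.8 ± 6.4 CPM in Flox (SD, n = 5 each), and the log2 fold change was -0.24 ± 0.10 (SE; 95% interval -0.46 to -0.02). By edgeR its unadjusted p was 0.0359 and its adjusted p 0.652, so it did not pass. The unadjusted p by edgeR was 0.0766, 0.0756 and 0.0619 without Flox 2, Flox 4 or Flox 5, and 0.0640, 0.0832 and 0.0731 without LKO 2, LKO 4 or LKO 5. Scap, the escort of SREBP2, was at 148, 124, 144, 120.0 and 143 CPM in LKO and at 113, 96.7, 81.0, 134 and 174 CPM in Flox. The log2 fold change of Scap was 0.18 ± 0.18 (SE; edgeR adjusted p = 0.776).

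The proteases that cleave SREBP2 had narrow ranges. Mbtps1, the site-1 protease, averaged 62.3 ± 1.8 CPM in LKO and 66.9 ± 7.5 CPM in Flox, with a log2 fold change of -0.10 ± 0.09 (SE; edgeR adjusted p = 0.748). Mbtps2, the site-2 protease, had the lowest level per exon length of the 29, at 0.547 ± 0.065 CPM per kb in LKO and 0.546 ± 0.059 CPM per kb in Flox. Its interval of the log2 fold change ran from -0.28 to 0.28.

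The INSIG proteins retain SCAP in the endoplasmic reticulum. Insig1, itself induced by SREBP2, was at 409, 422, 527, 452 and 368 CPM in LKO and at 372, 292, 168, 404 and 478 CPM in Flox. LKO 3, low for most enzymes, was the highest of all for Insig1, while Flox 3 was the lowest. The log2 fold change was 0.34 ± 0.23 (SE; 95% interval -0.16 to 0.85; edgeR adjusted p = 0.685). Insig2, whose liver transcript is known to rise in fasting, was at 297, 159.5, 148, 148 and 91.6 CPM in LKO and at 305, 181, 245, 109 and 155 CPM in Flox. The groups overlapped throughout (log2 fold change -0.24 ± 0.33 SE; 95% interval -0.97 to 0.50; edgeR adjusted p = 0.843). The libraries with the highest Insig2, namely LKO 1 and Flox 1, 2 and 3, were those with the lowest Dbp. Dbp was at 3.13 CPM in LKO 1, at 0.798, 1.68 and 1.97 CPM in Flox 1, 2 and 3, and at 34.5 to 111 CPM in the other 6. This was seen in the values and was not tested.

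**Figure D3:**
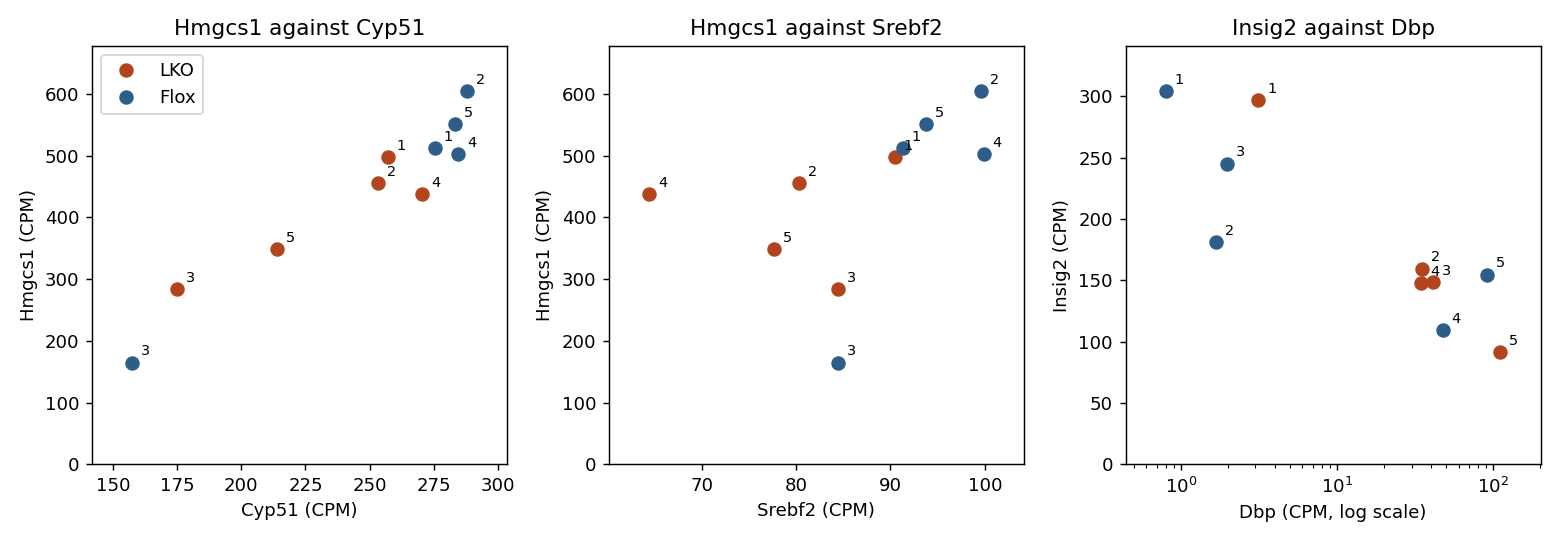
CPM of Hmgcs1 against Cyp51 and against Srebf2, and of Insig2 against Dbp (log axis), in the 5 LKO and 5 Flox libraries, with library numbers beside the points. Hmgcs1 and Cyp51 keep nearly the same order (rho = 0.927), and the libraries with the lowest Dbp, 0.798 to 3.13 CPM, have the highest Insig2.

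Among the genes that handle sterols, Stard4, a carrier of cholesterol between membranes and a target of SREBP2, had the largest difference. It was at 99.3, 99.5, 101, 127 and 116 CPM in LKO and at 79.6, 83.9, 42.4, 87.1 and 118 CPM in Flox. Flox 5 alone among the Flox libraries lay within the LKO range, and the log2 fold change was 0.40 ± 0.21 (SE; 95% interval -0.06 to 0.87; edgeR adjusted p = 0.656). Soat2, which esterifies cholesterol in hepatocytes, averaged 28.6 ± 3.9 CPM in LKO and 25.9 ± 6.4 CPM in Flox, with a log2 fold change of 0.14 ± 0.16 (SE; edgeR adjusted p = 0.800). Mylip, the ubiquitin ligase that disposes of lipoprotein receptors, averaged 4.65 ± 1.44 CPM in LKO and 4.52 ± 0.93 CPM in Flox (log2 fold change 0.04 ± 0.23 SE; edgeR adjusted p = 0.964). Tmem97, the sigma-2 receptor and a further SREBP2 target, averaged 60.3 ± 14.9 CPM in LKO and 59.3 ± 17.4 CPM in Flox (log2 fold change 0.02 ± 0.22 SE; edgeR adjusted p = 0.980).

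Because Flox 3 was the lowest library for most enzymes and also the library with the highest acute phase values, the comparison was repeated without it. Leaving out a library that is low in these genes raises the Flox mean and narrows the Flox range by construction. It can also remove an overlap with LKO. Other genes were not picked by a low value in Flox 3, so the shares of all genes below are not a like baseline. The median log2 fold change of the enzymes was then -0.17, against -0.01 for all genes, and 18 of the 19 enzymes had lower means in LKO, Sc5d being the exception at 0.25 ± 0.27 (SE). At an unadjusted p under 0.05 edgeR had Hmgcs1 (-0.42 ± 0.17), Mvk (-0.45 ± 0.15), Mvd (-0.34 ± 0.15) and Srebf2 (-0.27 ± 0.11) lower in LKO, or 4 of 29 members against 1.87% of all genes in that direction, and 0 members higher, against 1.68%. None passed the adjustment (edgeR adjusted p = 0.993 for each). The LKO and Flox libraries did not overlap for Hmgcs1, Cyp51 and Srebf2, all lower in LKO, or 3 of 29 members against 0.491% of all genes in that direction, and for 0 members higher in LKO, against 0.623%. Hmgcs1 then averaged 543 CPM in Flox, Cyp51 283 CPM and Srebf2 96.1 CPM. Insig1 kept a higher mean in LKO (0.17 ± 0.16 SE).

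Without both Flox 2 and Flox 3, the 2 libraries with the highest acute phase sums, the median log2 fold change of the enzymes was -0.24, and 18 of 19 enzymes again had lower means in LKO, with Sc5d at 0.00015 ± 0.15 (SE). Mvk, Pmvk, Mvd, Fdft1, Msmo1 and Srebf2 were lower at an unadjusted p under 0.05, or 6 of 29 members against 1.45% of all genes in that direction, and 0 were higher, against 1.67%. Again none passed the adjustment (edgeR adjusted p = 0.999 for each). The shares of all genes are not a like baseline here either, since Flox 3 was picked as low in the enzymes. Leaving out Flox 5 instead, the library highest for 9 enzymes, gave a median of 0.07 with 14 of 19 enzymes higher in LKO. Scap (0.35), Insig1 (0.50) and Stard4 (0.57) were then higher at an unadjusted p under 0.05, or 3 of 29 members against 5.25% of all genes in that direction, and 0 were lower, against 6.46%. None passed the adjustment (edgeR adjusted p = 0.397, 0.423 and 0.36). Leaving out a library that is high in the enzymes lowers their Flox means by construction. The enzyme median was also above 0 without Flox 1, Flox 4 or LKO 3, at 0.015, 0.04 and 0.03.

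**Figure D4:**
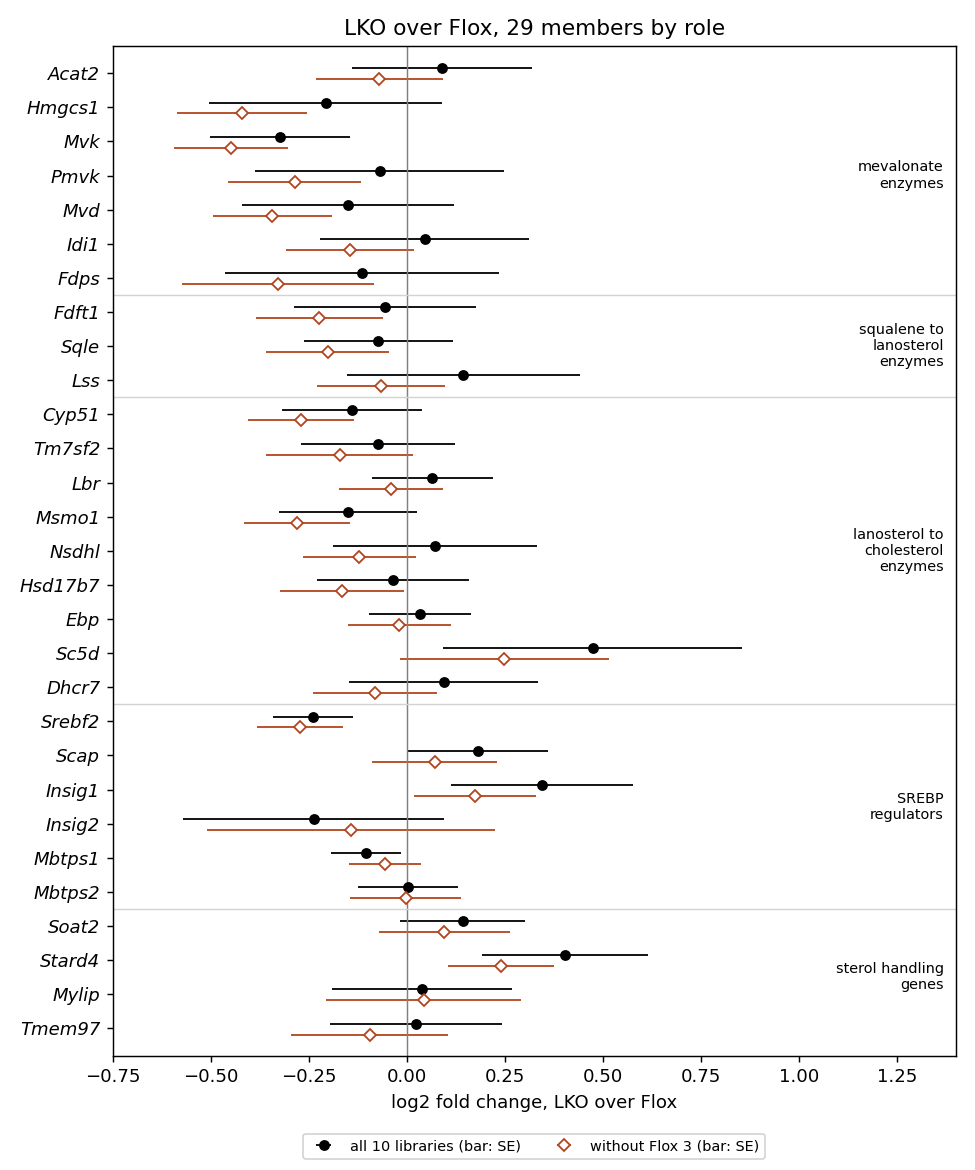
Log2 fold change of LKO over Flox (horizontal axis) for the 29 genes by role, with all 10 libraries (filled circles) and without Flox 3 (open diamonds); bars are SEs. For the enzymes the diamonds lie left of the circles, as for Hmgcs1 at -0.42 against -0.21.

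Genes next to the pathway were followed in lists. The machinery that degrades sterol-regulated proteins of the endoplasmic reticulum had 8 genes tested, of which 0 passed, 5 had higher and 3 lower means in LKO, with a median log2 fold change of 0.12. Erlin1, a scaffold of that machinery, averaged 49.4 ± 11.5 CPM in LKO and 37.6 ± 5.6 CPM in Flox (log2 fold change 0.39 ± 0.16 SE; edgeR adjusted p = 0.652). Rnf145, a sterol-responsive ubiquitin ligase, averaged 23.3 ± 5.1 CPM in LKO and 17.2 ± 4.1 CPM in Flox (log2 fold change 0.44 ± 0.18 SE; edgeR adjusted p = 0.652). These were 2 of 8 genes higher at an unadjusted p under 0.05, against 3.17% of all genes in that direction.

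A list of fatty acid synthesis genes, many of which answer to SREBP1c, was set beside the cholesterol enzymes. The list also held Thrsp, which is not an enzyme, and Pklr, the pyruvate kinase of glycolysis. Pklr had the largest log2 fold change of the list, 0.81. All 13 had higher means in LKO, 0 passed, and the median log2 fold change was 0.51, against -0.06 for the 19 cholesterol enzymes. In Flox 3 the median gene of the fatty acid list was at -2.52 log2 units from the median of the other libraries and the median cholesterol enzyme at -1.10. In Flox 2, set against the libraries other than Flox 2 and Flox 3, the medians were -1.75 and -0.14 log2 units. Hmgcs1, Idi1 and Cyp51 had their highest or second-highest value of all libraries in Flox 2, whereas Sc5d, Dhcr7 and Lss were lower there than in every library but Flox 3. The difference between the lists was not tested.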

How the data were processed

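Liver RNA was sequenced as 5 LKO and 5 Flox libraries made with oligo-dT, per the labels' protocols. What the authors deposited is a table of raw counts per gene, whole numbers with no scaling, per the file headers. For its making, bcl2fastq, STAR 2.5.1a, Subread, featureCounts 1.4.6-p5 and build GRCm38 are listed by the submitters' processing notes. How strand and multi-mapping reads were handled is not stated there. After 287 repeated lines were dropped, 55487 genes remained. Between pairs of libraries the mean chi-square per gene was 37.0 to 687, so none were the same library sequenced again. This does not tell whether separate libraries came from the same animal.

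Genes were kept with filterByExpr, scaled by TMM (factors 0.963 to 1.04) and compared by edgeR's quasi-likelihood test (edgeR 4.0.16, robust fit, R 4.3.3), with Benjamini-Hochberg adjustment over 15894 genes and a threshold of 0.05. Tests were two-sided. SEs were derived from the F statistic. Log2 CPM used a prior count of 2. Alternatives were library totals, DESeq2 1.42.0, limma-voom (limma 3.58.1), no filter, no robust fit and libraries left out. The fit was tested on simulated data. Copies were sought with BLAST 2.17.0 at 95% identity over 200 bases or more. Positions and exon lengths are those of GENCODE M21.

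Any member could be named; full statistics were for Srebf2, Scap, Insig1, Insig2, Hmgcs1, Sqle and up to 4 members per role with the smallest p, and in other lists up to 2 genes. The members, lists and Flox libraries left out as a pair were chosen with earlier results of these data known. The motif TCACNCCA was chosen after the promoter windows had been read. Sums with near-identical copies were added after the data were seen.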

Additional observations from a re-analysis of the deposited data

Results flagged for a closer look

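In groups of 5, a library was picked out where its gap to the nearest other library exceeded 0.71 of the group's range on the log2 scale. Of 58 groups (29 genes in LKO and in Flox), 6 did so, and chance gives about 1 in 20 for groups that are independent. These groups share the same libraries and are not independent, so the 6 cannot be read as more than chance. In LKO, LKO 1 was apart from and above the others for Mvk (gap ratio 0.718, within an LKO range of 33.0 to 40.7 CPM), and LKO 4 for Sqle (0.712) and Lbr (0.824). The ratios of Mvk and Sqle only just passed. In Flox, Flox 3 was far below the others for Hmgcs1 (0.858), Idi1 (0.866) and Cyp51 (0.926).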

How the results depend on the processing

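No paired analysis was possible because no litter or cage was available for each library. The labels number the Flox libraries 1 to 5 and the LKO libraries 6 to 10, which gives no pairs either. The tests therefore took no account of shared litters or cages. Of 466 log2 fold changes of members under alternatives, 407 kept their direction and side of the threshold and 59 turned round, 10 members never did, and 0 members were called under any alternative. DESeq2 called 5 genes higher and 6 lower in LKO, where edgeR called 0 in each direction and had 504 higher and 689 lower at an unadjusted p under 0.05. With 1 library left out, edgeR called 0 genes each time, and the enzyme median ran from -0.17 to 0.07.

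With single libraries left out, the log2 fold changes of the 16 members that turned round were Acat2 -0.0699 to 0.22, Dhcr7 -0.082 to 0.22, Ebp -0.019 to 0.11, Fdft1 -0.22 to 0.051, Fdps -0.33 to 0.084, Hsd17b7 -0.17 to 0.093, Idi1 -0.14 to 0.14, Lbr -0.039 to 0.14, Lss -0.065 to 0.32, Mbtps2 -0.044 to 0.065, Mylip -0.10 to 0.18, Nsdhl -0.12 to 0.17, Pmvk -0.29 to 0.067, Sqle -0.20 to 0.043, Tm7sf2 -0.19 to 0.036 and Tmem97 -0.12 to 0.14. Without Flox 2 and Flox 3, those that turned round were Acat2 at -0.21, Idi1 at -0.10, Lss at -0.20, Lbr at -0.034, Nsdhl at -0.24, Ebp at -0.10, Dhcr7 at -0.24, Scap at -0.049, Mbtps1 at 0.017, Mbtps2 at -0.00086, Soat2 at -0.047, Mylip at -0.11 and Tmem97 at -0.25. With library totals in place of TMM, which moved the median of all genes to -0.05, Ebp was at -0.0033, Mbtps2 at -0.033 and Tmem97 at -0.015. With limma-voom, Mbtps2 was at -0.0015, Mylip at -0.10 and Tmem97 at -0.12. The relations of Hmgcs1 past the adjustment numbered 1 with all libraries and 0 without Flox 2 and Flox 3, where r with Idi1 was 0.742 on 8 libraries (permutation p = 0.0398, adjusted 0.319). There r turned to -0.34 for Insig1, 0.419 for Insig2, -0.35 for Dbp and 0.0301 for Apcs, and on CPM to 0.0424 for Insig2 and -0.0345 for Dbp. The cause of these shifts was not tested. Every member had at least 124 counts in every library, the fewest for Mylip, so counting error weighs most there.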

Other observations

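Branches that lead from the pathway to other isoprenoids, among them the ubiquinone and dolichol enzymes and the protein prenyltransferases, had 11 genes tested. Of these 0 passed, 3 had higher and 8 lower means in LKO, and the median log2 fold change was -0.07. Rce1, the protease that trims prenylated proteins, averaged 8.64 ± 0.78 CPM in LKO and 10.5 ± 2.2 CPM in Flox (edgeR adjusted p = 0.656), and Icmt, the methyltransferase of the next step, averaged 33.2 ± 3.3 CPM in LKO and 37.5 ± 4.2 CPM in Flox (edgeR adjusted p = 0.664). The median gene of this list was at 0.17 log2 units from the median of the other libraries in Flox 3, and the median cholesterol enzyme at -1.10.

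Liver X receptors and genes they regulate, the counterpart that answers to high sterols, had 8 genes tested, of which 0 passed, 5 had higher and 3 lower means in LKO, with a median log2 fold change of 0.30. Nr1h2, liver X receptor beta, averaged 35.1 ± 3.7 CPM in LKO and 42.2 ± 6.6 CPM in Flox (log2 fold change -0.27 ± 0.12 SE; edgeR adjusted p = 0.652). Abca1, the cholesterol exporter, averaged 168 ± 29.6 CPM in LKO and 139.9 ± 15.7 CPM in Flox (log2 fold change 0.26 ± 0.13 SE; edgeR adjusted p = 0.652).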
